A study of Mus musculus with 21 samples.

Results

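The ErbB receptors and their ligands were followed across 2 cell lines, in culture and as tumours, on 21 mouse arrays. Of 10 genes listed by name (4 receptors and 6 ligands), 9 had a probe set assigned to that gene alone, out of 22180 genes measured. They were the receptors Egfr, Erbb2, Erbb3 and Erbb4 and the ligands Hbegf, Tgfa, Nrg1, Btc and Ereg. Areg, the sixth ligand, was not analysed here. A single probe set stood for each gene except Ereg, which had 2, of which the brighter was used (probe set 17548464).

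ErbB receptors are transmembrane tyrosine kinases that pair with each other when a ligand binds. Egfr takes Tgfa, Areg, Ereg, Btc and Hbegf, Erbb3 and Erbb4 take the neuregulins, Erbb4 also takes Btc, Hbegf and Ereg, and Erbb2 has no ligand of its own and serves as the favoured partner. Erbb3 has little kinase activity and, once phosphorylated by its partner, recruits phosphoinositide 3-kinase. In the mammary gland these receptors act in ductal growth, alveolar development and carcinoma.

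Py117 and Py8119 are clonal carcinoma lines from MMTV-PyMT mice, in which a mammary tumour virus promoter drives the polyomavirus middle T oncogene in mammary epithelium, so all groups carry that transgene. Cultures grew in Ham's medium with 5% serum (3 arrays a line), and tumours grew from 1000000 cells placed with low-growth-factor Matrigel in mammary fat pad 4 (3 tumour groups of 5 arrays: Py117 alone, Py8119 alone, and both lines implanted 1:1, called mixed tumours). No sample was treated, and tumours were taken when radiation would usually be given. In the series' design text Py117 is the radiation-sensitive clone and Py8119 the resistant one. Host strain, sex and age were not given in the sources used here. The labels call the samples biological replicates without saying whether cultures were grown separately. The tests take the arrays as independent, so p-values rest on the spread between these samples only.

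The values were log2 signals, and arrays of a group correlated with r between 0.969 and 0.994. As a mark of background, the 95th percentile of the mean signal of 1390 olfactory and vomeronasal receptor genes was 5.31. A difference against a group mean near or under it is limited by background. Epithelial markers matched the mammary label in Py117 cultures, where 13 of 14 lay above background, but 6 of 14 did in Py8119 cultures. Array means of that list ran from 8.75 to 8.84 in Py117 cultures and from 5.74 to 6.00 in Py8119 cultures. Fibroblast markers ran from 5.24 to 6.02 in all cultures and from 8.24 to 10.88 in all tumours. In bulk samples, fewer cells of a type and less RNA per cell cannot be told apart. A gene was called at an adjusted p under 0.05 (limma, Benjamini-Hochberg over 22180 genes), and ± after a log2 difference is the standard error.

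The receptor genes fell into 3 patterns. Erbb3 and, to a lesser extent, Erbb2 were lower wherever Py8119 cells were present. Egfr differed little between lines but was higher in tumours than in cultures of both. Erbb4 stood clear of background only in Py117 tumours.

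**Figure D1:**
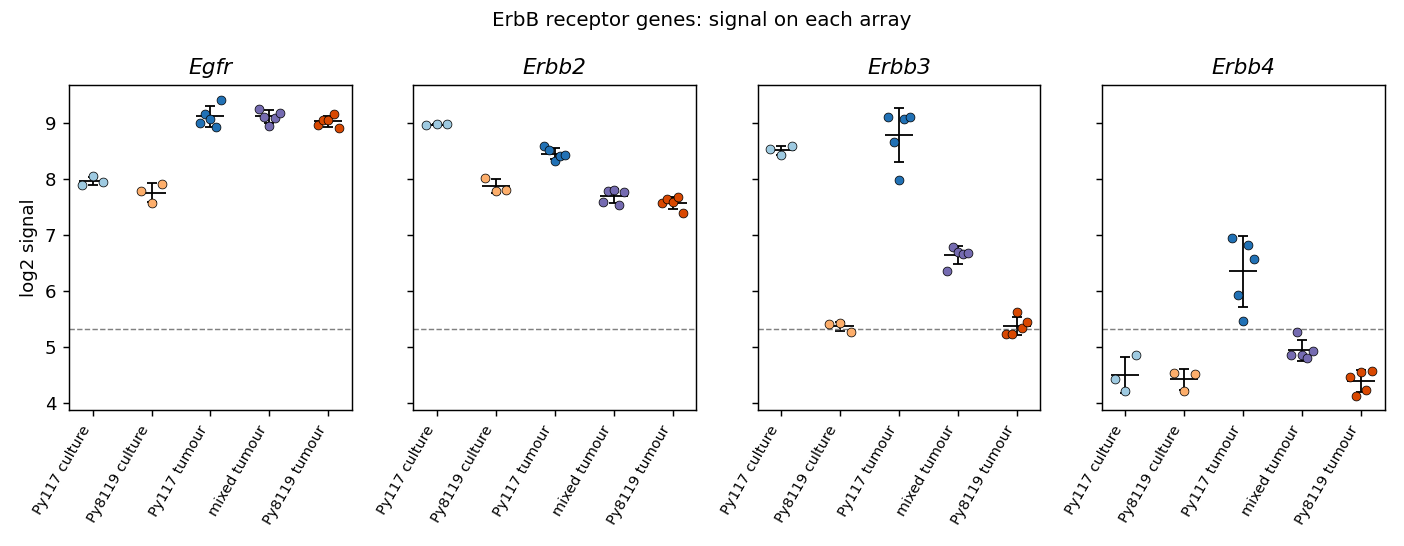
Log2 signal of the 4 receptor genes on each array (points) in the 5 groups, with group mean and SD (bars) and the background mark of 5.31 (dashed). Erbb3 has means of 8.51 and 8.78 in the Py117 groups and 5.37 in both Py8119 groups, and Egfr has means over 9 in all tumour groups and under 8 in both cultures.

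Erbb3, the neuregulin receptor, read 8.53, 8.42 and 8.58 in the Py117 cultures and 5.40, 5.43 and 5.27 in the Py8119 cultures. In tumours it read 9.10, 8.66, 7.97, 9.07 and 9.11 for Py117, 6.36, 6.79, 6.70, 6.66 and 6.68 for mixed tumours, and 5.23, 5.23, 5.62, 5.33 and 5.45 for Py8119. Every Py117 array lay above every mixed tumour, every mixed tumour lay above every unmixed Py8119 array, and the Py8119 groups sat at the background mark. The log2 difference between the cultures was -3.14 ± 0.10 (8.82-fold, adjusted p = 2.34e-06, n = 3 and 3). Between the parental tumours it was -3.41 ± 0.18 (10.6-fold, adjusted p = 5.70e-11, n = 5 and 5), rank 96 by size among all genes. With the Py8119 mean at 5.37 in both settings, both folds are limited by background.

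The order of Erbb3 means was Py117 tumours (8.78), Py117 cultures (8.51), mixed tumours (6.64), Py8119 tumours (5.37) and Py8119 cultures (5.37), and the outer pairs overlapped. Erbb3 was not called between tumours and cultures of either line. Py117 tumours differed from Py117 cultures by 0.27 ± 0.24 (interval -0.26 to 0.80, adjusted p = 0.441). Without Py117 tumour 3, the lowest of its group, the difference was 0.47 (adjusted p = 0.0176). Py8119 tumours and cultures differed by 0.00 ± 0.11 (adjusted p = 0.983). With both Py8119 means at background, that value cannot show whether Erbb3 changed with setting in this line. The part of host cells in the tumour levels of Erbb3 was not tested. The genes nearest to Erbb3 in pattern over the 21 arrays were Rasef, Ptpn3 and Patj, with root-mean-square distances between centred log2 values of 0.171, 0.207 and 0.246.

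Erbb2, the receptor without its own ligand, read 8.96, 8.97 and 8.97 in Py117 cultures against 8.01, 7.79 and 7.80 in Py8119 cultures. It read 8.59, 8.51, 8.32, 8.40 and 8.42 in Py117 tumours, 7.59, 7.78, 7.80, 7.53 and 7.77 in mixed tumours and 7.56, 7.64, 7.58, 7.67 and 7.39 in Py8119 tumours. The lines did not overlap in either setting, whereas mixed and Py8119 tumours did. Erbb2 was lower in Py8119 cultures by 1.10 ± 0.10 on the log2 scale (2.14-fold, adjusted p = 0.000235) and in Py8119 tumours by 0.88 ± 0.09 (1.84-fold, adjusted p = 1.98e-07). All groups lay far above background, so this smaller difference is not cut short by it as that of Erbb3 is.

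Egfr, the receptor of Tgfa and Hbegf, read 7.89, 8.04 and 7.95 in Py117 cultures and 7.78, 7.56 and 7.90 in Py8119 cultures. In tumours it read 9.0, 9.16, 9.07, 8.93 and 9.41 for Py117, 9.24, 9.10, 8.95, 9.09 and 9.18 for mixed tumours and 8.96, 9.05, 9.05, 9.15 and 8.90 for Py8119. The 3 tumour groups overlapped, as did the 2 cultures, but no tumour overlapped with any culture. Egfr was higher in tumours than in cultures by 1.15 ± 0.13 for Py117 (2.22-fold, adjusted p = 6.15e-05) and by 1.28 ± 0.10 for Py8119 (2.42-fold, adjusted p = 8.24e-06). The difference between these rises was 0.12 ± 0.16 (95% interval -0.21 to 0.46, adjusted p = 0.698). Between the lines, Egfr differed by -0.22 in culture (interval -0.49 to 0.06, adjusted p = 0.227) and by -0.09 in tumours (interval -0.29 to 0.11, adjusted p = 0.527).

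Host cells came in with the same comparison as the Egfr rise. Of 7 fibroblast markers, 7 were higher in Py117 tumours than in culture (median log2 difference 5.37) and 6 in Py8119 tumours (median 2.47). Of 8 macrophage markers, 7 and 8 were higher. Their part in the rise of Egfr was not tested. Between the parental tumours, fibroblast array means ran from 9.84 to 10.88 in Py117 and from 8.24 to 9.35 in Py8119 tumours, with 7 of 7 markers lower in Py8119. Macrophage array means ran from 9.84 to 10.21 in Py117 and from 10.15 to 10.41 in Py8119 tumours, with 5 of 8 markers higher and 2 lower in Py8119. The genes nearest to Egfr in pattern were Man2b1 (distance 0.172), Ctsb (0.195) and Arap1 (0.199).

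Erbb2 moved against Egfr between settings. It was lower in tumours than in cultures by 0.52 ± 0.10 on the log2 scale for Py117 (adjusted p = 0.00288) and by 0.30 ± 0.10 for Py8119 (adjusted p = 0.0332). The Py8119 call was lost without Py8119 culture 1 or 3 or Py8119 tumour 1, 3 or 5 (adjusted p = 0.0523 to 0.131, log2 difference -0.34 to -0.23). Because these receptors went opposite ways, the 250 bases before their RefSeq start sites are shown (GRCm38.p6, plus strand, Egfr at chr11:16751953-16752202 and Erbb2 at chr11:98412234-98412483), with capitals marking any match to the motifs searched.
Egfr: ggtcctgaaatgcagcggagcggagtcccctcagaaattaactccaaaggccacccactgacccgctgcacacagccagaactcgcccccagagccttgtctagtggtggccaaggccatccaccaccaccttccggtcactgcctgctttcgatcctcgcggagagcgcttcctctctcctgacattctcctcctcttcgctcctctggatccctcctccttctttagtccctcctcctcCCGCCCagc
Erbb2: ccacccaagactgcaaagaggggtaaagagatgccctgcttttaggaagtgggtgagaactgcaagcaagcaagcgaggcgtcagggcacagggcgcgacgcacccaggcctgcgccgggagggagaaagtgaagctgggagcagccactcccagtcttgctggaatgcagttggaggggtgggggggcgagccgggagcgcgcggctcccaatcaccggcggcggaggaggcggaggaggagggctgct
The motifs were the E-box CAGGTG bound by Snai and Zeb factors, the AP-1 site TGANTCA and the GC box GGGCGG, each on both strands. Egfr held 1 GC box and Erbb2 none, and neither window held the E-box or the AP-1 site. Of 32851 promoter windows of this length, 32.7% held the GC box, 17.2% the E-box and 6.7% the AP-1 site. The windows had 60.8% and 66.0% G and C, against a median of 52.4%. Promoter sequences were matched for 6 of the 10 listed genes. The part of these sequences in the changes of Egfr and Erbb2 between settings was not tested.

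Erbb4, a neuregulin receptor that acts in alveolar development of the normal gland, read 4.43, 4.21 and 4.85 in Py117 cultures and 4.53, 4.21 and 4.52 in Py8119 cultures, all under background. Py117 tumours read 6.95, 5.93, 5.47, 6.82 and 6.56, mixed tumours 4.86, 5.27, 4.85, 4.80 and 4.92, and Py8119 tumours 4.47, 4.13, 4.55, 4.23 and 4.57. Only Py117 tumours were above background, and they overlapped with no other group. Erbb4 was higher in Py117 tumours than in Py117 cultures by 1.85 ± 0.31 (3.59-fold, adjusted p = 0.00113). It was lower in Py8119 than in Py117 tumours by 1.95 ± 0.22 on the log2 scale (3.88-fold, adjusted p = 9.91e-07). With the other groups under 5.31, these folds are limited by background. Its nearest genes in pattern were Hunk (distance 0.223), Tmprss13 (0.272) and Pde9a (0.283).

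Markers of fat and of other cell types varied between the same tumours. The mean log2 level of 8 adipocyte markers was 8.35, 5.95, 6.02, 7.40 and 8.52 in Py117 tumours 1 to 5, and between 5.55 and 6.25 in the mixed and Py8119 tumours. The 2 Py117 tumours with the lowest adipocyte means, numbers 2 and 3, had the lowest Erbb4, Erbb3 and Btc and the highest Hbegf of the group. These tumours were also the lowest for 6 mast cell and innate lymphoid cell markers, of which Kit and Gata3 are also made by mammary epithelium (means 7.61, 5.77, 5.45, 7.13 and 7.36 in Py117 tumours 1 to 5). The same held for 6 T cell markers (6.97, 6.53, 6.75, 8.02 and 7.52). Tumours 2 and 3 were the highest for 7 fibroblast markers (9.84, 10.88, 10.69, 10.24 and 10.19) and 7 mesenchymal markers (8.94, 9.53, 9.23, 9.10 and 9.13). Without host cells, Py117 cultures ran from 8.73 to 8.94 for these mesenchymal markers. Tumours 2 and 3 did not stand apart together for 14 epithelial markers (8.36, 8.03, 7.91, 8.02 and 8.47). Nor did they for 6 endothelial (8.85, 8.65, 7.98, 8.49 and 8.59) or 8 macrophage markers (9.84, 10.05, 10.21, 9.91 and 10.17). Tumour 3, lowest for Erbb4 and Erbb3, was lowest for the epithelial and endothelial markers. What these cell types contributed to Erbb4, Erbb3, Btc and Hbegf was not tested. With the adipocyte mean as a covariate, Erbb4 in Py8119 against Py117 tumours went from -1.95 to -1.37 (adjusted p = 5.26e-05) and Hbegf from 1.74 to 1.10 (adjusted p = 2.78e-07). Erbb3 went from -3.41 to -3.00 and Btc from 0.44 to 0.66, while Nrg1 went from 2.58 to 2.53 and Tgfa from -1.94 to -2.14. In mixed against Py117 tumours, Erbb3 went from -2.14 to -1.74, Erbb4 from -1.40 to -0.83 (adjusted p = 0.00419) and Hbegf from 1.89 to 1.26. There Nrg1 went from 2.45 to 2.41, Tgfa from -1.58 to -1.77 and Btc from 0.49 to 0.71. In all, 7 members were called in Py8119 against Py117 tumours with the covariate and 7 without it. Py117 tumours 1, 4 and 5 lay above all mixed and Py8119 tumours in adipocyte mean, so the covariate cannot be fully told apart from the group.

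**Figure D2:**
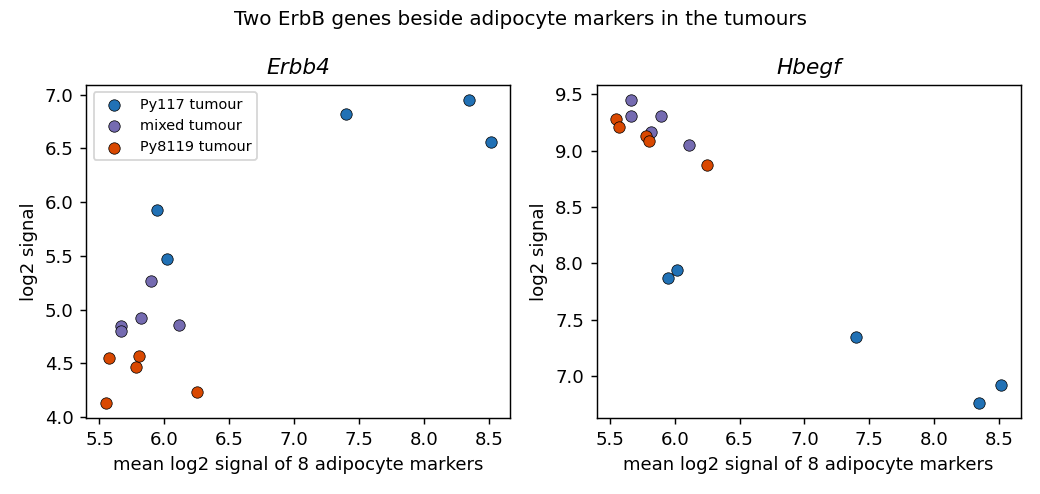
Log2 signal of Erbb4 and Hbegf (vertical axes) against the mean log2 signal of 8 adipocyte markers (horizontal axes) in the 15 tumours, coloured by group. Among Py117 tumours, those at 5.95 and 6.02 on the horizontal axis are lowest for Erbb4 and highest for Hbegf.

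The ligand genes did not follow a single pattern. Tgfa was higher in Py117 groups, Nrg1 was higher in Py8119 groups, and Hbegf was similar in both cultures but low in Py117 tumours. Btc was lower in Py117 tumours than in Py117 cultures, and Ereg was near background throughout.

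**Figure D3:**
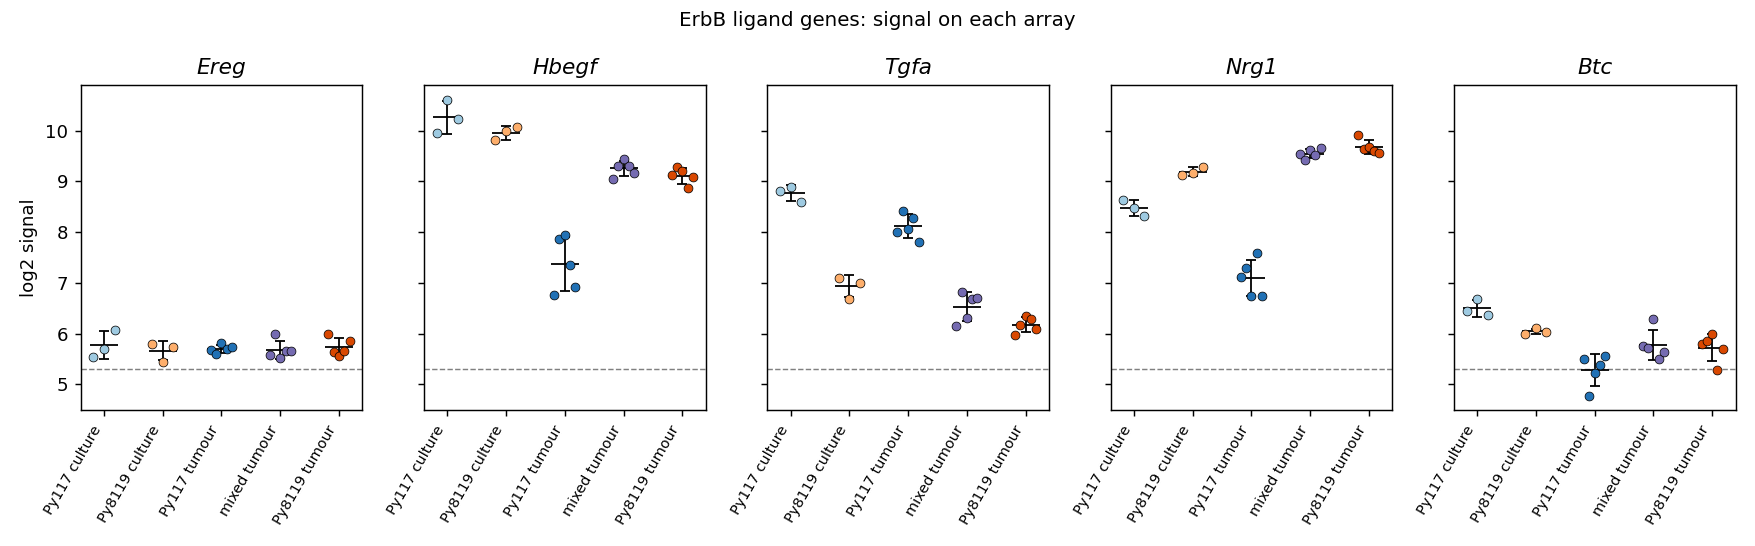
Log2 signal of the 5 ligand genes on each array (points) in the 5 groups, with group mean and SD (bars) and the background mark of 5.31 (dashed). Hbegf and Nrg1 have their lowest group means in Py117 tumours (7.37 and 7.10), whereas Tgfa is lowest in Py8119 tumours (6.18).

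Nrg1, which encodes the main ligand of Erbb3 and Erbb4, read 8.63, 8.48 and 8.32 in Py117 cultures and 9.13, 9.16 and 9.29 in Py8119 cultures. In tumours it read 7.11, 7.29, 6.75, 7.59 and 6.74 for Py117, 9.54, 9.42, 9.61, 9.52 and 9.66 for mixed tumours and 9.92, 9.63, 9.67, 9.60 and 9.57 for Py8119. The gap between the lines was wider in tumours than in culture, and mixed and Py8119 tumours overlapped. Nrg1 was higher in Py8119 cultures by 0.72 ± 0.11 (1.64-fold, adjusted p = 0.00310) and in Py8119 tumours by 2.58 ± 0.14 (5.98-fold, adjusted p = 7.17e-11).

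Between settings Nrg1 went opposite ways in the lines. Py117 tumours were lower than Py117 cultures by 1.38 ± 0.19 on the log2 scale (2.61-fold, adjusted p = 0.000309). Py8119 tumours were higher than their cultures by 0.48 ± 0.10 (1.4-fold, adjusted p = 0.00358), although with arrays centred on their medians that difference was 0.28 (adjusted p = 0.0512). The lines differed in this change by 1.87 ± 0.23 (adjusted p = 2.55e-05). Schwann cells also use neuregulin signalling. Array means of 5 Schwann markers ran from 5.85 to 6.00 in Py117 tumours and from 6.10 to 6.35 in Py8119 tumours. In culture, without host cells, they ran from 5.55 to 5.66 in Py117 and from 5.77 to 6.11 in Py8119. Of these markers, 2 were higher and 2 lower in Py8119 than in Py117 tumours. In Py8119 tumours Sox10 (mean 5.19) and S100b (4.80) were under background. Cdh19 (5.44) and Mbp (5.77) were a little above it, and Ncam1 was at 9.95. The part of Schwann cells in the Nrg1 difference was not tested. The nearest genes to Nrg1 in pattern were Sema3e (distance 0.240), Plag1 (0.286) and Klhdc8a (0.302).

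Tgfa, an Egfr ligand made by epithelial cells, read 8.82, 8.89 and 8.59 in Py117 cultures against 7.10, 6.69 and 7.0 in Py8119 cultures. It read 8.01, 8.42, 8.07, 8.27 and 7.81 in Py117 tumours, 6.15, 6.83, 6.30, 6.69 and 6.70 in mixed tumours and 5.98, 6.17, 6.34, 6.29 and 6.10 in Py8119 tumours. All Py117 arrays lay above all others, while Py8119 cultures overlapped with mixed tumours and these with Py8119 tumours. Tgfa was lower in Py8119 by 1.83 ± 0.14 on the log2 scale in culture (3.57-fold, adjusted p = 0.000119) and by 1.94 ± 0.14 in tumours (3.84-fold, adjusted p = 3.22e-09). It was also lower in tumours than in cultures, by 0.65 ± 0.15 for Py117 (adjusted p = 0.00672) and by 0.75 ± 0.12 for Py8119 (adjusted p = 0.000743). Of the pairs among the 8 members whose group means spanned at least 1 on the log2 scale, Tgfa and Erbb2 were nearest in pattern (distance 0.503).

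Hbegf, a membrane-anchored ligand of Egfr and Erbb4 that is shed by proteases, read 9.95, 10.61 and 10.24 in Py117 cultures and 9.81, 10 and 10.07 in Py8119 cultures. Py117 tumours read 6.76, 7.87, 7.94, 7.35 and 6.92, mixed tumours 9.05, 9.31, 9.45, 9.31 and 9.17, and Py8119 tumours 9.13, 9.28, 9.21, 8.87 and 9.09. The cultures overlapped, every tumour lay below every culture, and Py117 tumours lay below all others. Between the cultures the difference was -0.31 (95% interval -0.72 to 0.10, adjusted p = 0.253). Hbegf was lower in tumours than in cultures by 2.90 ± 0.28 on the log2 scale for Py117 (7.44-fold, adjusted p = 2.47e-05) and by 0.85 ± 0.11 for Py8119 (1.80-fold, adjusted p = 0.000208). The lines differed in this drop by 2.05 ± 0.32 (adjusted p = 0.000315).

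Between the parental tumours, Hbegf was 3.35-fold higher in Py8119 than in Py117 tumours (log2 difference 1.74 ± 0.19, adjusted p = 6.25e-07). Macrophages can make Hbegf, and array means of 8 macrophage markers ran from 9.84 to 10.21 in Py117, from 10.26 to 10.65 in mixed and from 10.15 to 10.41 in Py8119 tumours, against 5.49 to 6.06 in cultures, where Hbegf was highest. Of these markers, 5 were higher and 2 lower in Py8119 than in Py117 tumours, and their part in the Hbegf difference was not tested. The nearest genes to Hbegf in pattern were Itga3 (distance 0.217), Pbp2 (0.314) and Ptgs2 (0.323).

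Btc, a ligand of Egfr and Erbb4, had group means from 5.29 in Py117 tumours to 6.5 in Py117 cultures. It was lower in Py117 tumours than in Py117 cultures (6.45, 6.68 and 6.36 against 5.5, 4.78, 5.22, 5.38 and 5.56), with no overlap (log2 difference -1.21 ± 0.18, adjusted p = 0.000397). The tumour mean lay at background. Calls for Btc between the lines were weak. In culture it was lower in Py8119 cells by 0.45 ± 0.11 on the log2 scale (adjusted p = 0.0228), with adjusted p of 0.0538 to 0.0661 without Py117 culture 1 or 2 or Py8119 culture 1 or 3, and 0.119 or 0.154 after quantile normalization or median centring. In tumours it was higher in Py8119 by 0.44 ± 0.17 (adjusted p = 0.0468), with overlapping groups and adjusted p of 0.0587 to 0.144 when Py117 tumours 2, 3, 4 or Py8119 tumours 1, 2, 3, 5 were left out in turn.

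Ereg, a low-affinity ligand of Egfr and Erbb4, had group means between 5.66 and 5.77. All groups overlapped with their neighbours in this order, and Ereg was called in none of the 7 comparisons (adjusted p = 0.678 to 0.891). Its second probe set averaged 5.43 over all arrays, close to background as well. Adjacent to these ligands in function, 5 further ErbB ligand genes were measured. Epgn, another Egfr ligand, was called in culture, where it was lower in Py8119 cells (mean 4.91 against 8.05, log2 difference -3.15 ± 0.12, adjusted p = 6.48e-06). In tumours of both lines Epgn was under background (means 4.57 and 4.63).

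Nrg2, a second neuregulin gene, ran against Nrg1. Its mean was 7.36 in Py117 cultures, 8.48 in Py117 tumours, 6.66 in Py8119 cultures and 6.14 in Py8119 tumours. It was lower in Py8119 tumours by 2.34 ± 0.12 on the log2 scale (adjusted p = 6.70e-11), whereas Nrg1 was higher there. Egf, Nrg3 and Nrg4 had means between 4.77 and 5.62 in the 4 unmixed groups and were called in no comparison between the lines.

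Across comparisons, 5 of 9 members were called between the cultures (1 higher and 4 lower in Py8119), where 26.8% of all genes were (14.5% higher and 12.3% lower). The median absolute log2 difference was 0.45 for the members and 0.23 for all genes. Between the parental tumours 7 of 9 were called (3 higher and 4 lower), against 37.4% of all genes, with median absolute differences of 1.74 and 0.20. For Py117 tumours against culture 7 of 9 were called (2 higher and 5 lower), where 30.7% of all genes were (12.4% higher and 18.3% lower). For Py8119 tumours against culture 5 of 9 were called (2 higher and 3 lower), where 37.1% of all genes were (16.3% higher and 20.9% lower). Medians of all probe sets on an array ran from 5.24 to 5.53, near the background mark of 5.31. The values for all genes, here and for the gene lists below, were not matched for signal.

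**Figure D4:**
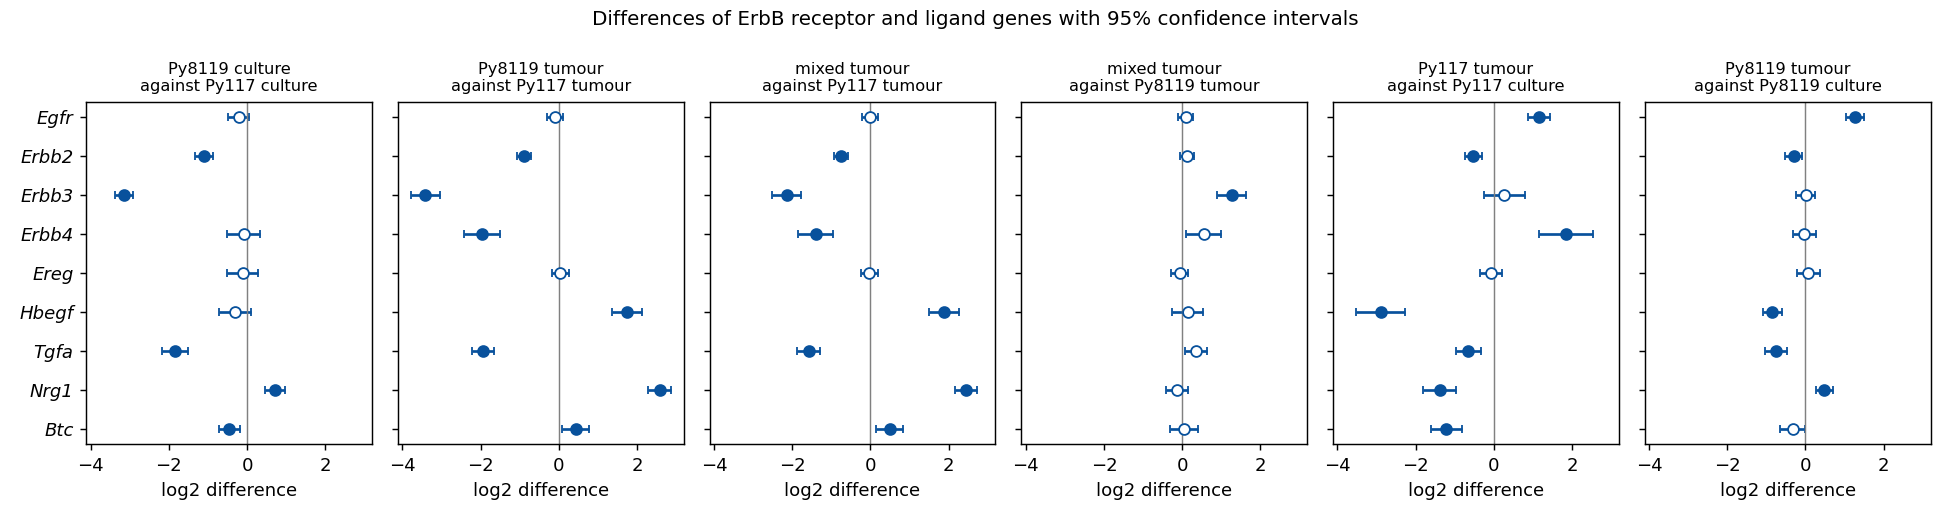
Log2 difference (horizontal axes) with 95% confidence interval for each of the 9 genes in 6 comparisons, filled where the adjusted p was under 0.05. The panels for Py8119 and mixed against Py117 tumours each hold 7 called genes, and that for mixed against Py8119 tumours holds 1.

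The lines differed in their change from culture to tumour for 4 of 9 members, against 13.5% of all genes (7.50% with a positive and 5.99% with a negative difference, Py8119 minus Py117). They were Hbegf and Nrg1, given above, Erbb4 (-1.87 ± 0.37, adjusted p = 0.00216) and Btc (0.89 ± 0.24, adjusted p = 0.0186). Erbb4 rose in Py117 tumours and differed by -0.03 ± 0.13 in Py8119 tumours (adjusted p = 0.891). Btc was lower in Py117 tumours and differed by -0.32 ± 0.15 in Py8119 tumours (adjusted p = 0.113), where it was called after quantile normalization (-0.57, adjusted p = 0.0193) and after centring on array medians (-0.53, adjusted p = 0.0166). The call for Btc was lost without Py117 culture 2 (0.79, adjusted p = 0.0623).

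Mixed tumours lay close to Py8119 tumours. Against Py117 tumours 7 of 9 members were called (3 higher and 4 lower), where 36.1% of all genes were (19.2% higher and 16.9% lower). Against Py8119 tumours 1 of 9 was called, higher, where 1.78% of all genes were (1.61% higher and 0.162% lower). That gene was Erbb3, higher in mixed tumours by 1.27 ± 0.18 (2.41-fold, adjusted p = 0.000343). Against Py117 tumours, Erbb3 was lower by 2.14 ± 0.18 on the log2 scale and Nrg1 higher by 2.45 ± 0.14 (adjusted p = 3.89e-08 and 3.97e-10). Btc was higher there by 0.49 ± 0.17 (adjusted p = 0.0273), a call lost without Py117 tumour 2 (adjusted p = 0.0836) or mixed tumour 3 (adjusted p = 0.0805). Both comparisons share the mixed tumours. Erbb4 did not overlap between mixed and Py8119 tumours (0.55 ± 0.22) but was not called (adjusted p = 0.272, and 0.0461 with array weights), with both means under background. Of 14 epithelial markers, 6 were higher in mixed than in Py8119 tumours, with array means of 6.49 to 6.84 against 5.78 to 5.88.

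The place of each mixed tumour between the parental means on the linear scale (0% for Py117, 100% for Py8119) was computed for the 5 members whose parental tumours differed by at least 1 on the log2 scale. Erbb3 lay at 90.3, 83.5, 85.0, 85.7 and 85.4% in the 5 mixed tumours (mean 86.0 ± 2.6, SD, n = 5). Erbb4 averaged 85.1 ± 6.6%, Tgfa 89.7 ± 8.8% and Nrg1 89.6 ± 7.0%. Hbegf lay at 93.0, 120, 137, 120 and 105% (mean 115 ± 17), so 4 of 5 mixed tumours were above the Py8119 mean, although the difference between the groups was not called (0.14 ± 0.19, adjusted p = 0.786). Over 1960 genes with such a difference the median was 86.4% (quartiles 77.5 and 93.7). On the log2 scale Erbb3 lay at 62.8% and Erbb4 at 71.8%.

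**Figure D5:**
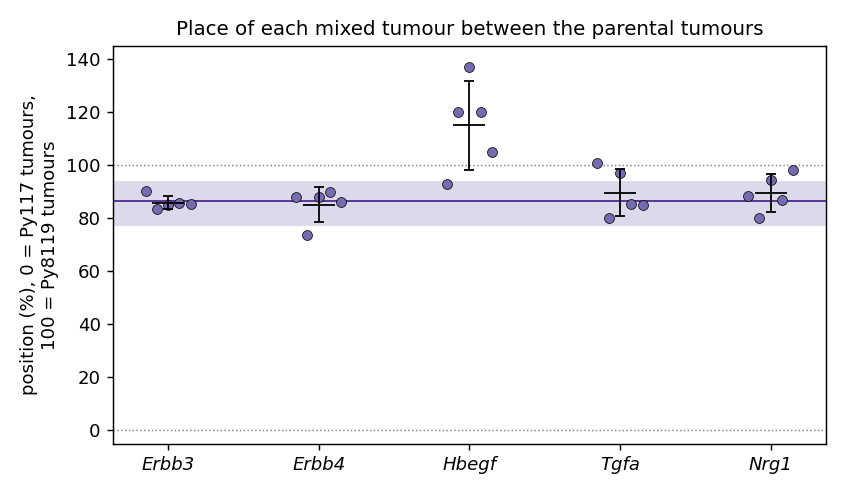
Position of each of the 5 mixed tumours (points, with mean and SD) between the Py117 tumour mean (0%) and the Py8119 tumour mean (100%) on the linear scale for 5 genes, with the median of 1960 genes (line, 86.4%) and its quartiles (band). Hbegf has points above 100%, and the means of the other 4 genes lie between 85.1 and 89.7%.

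Counts of called genes that act around the receptors are set against all genes, of which 26.8% were called between the cultures and 37.4% between the parental tumours. Of 10 genes for ligand shedding, 3 were higher and 5 lower in Py8119 cultures (median log2 difference -0.33, against -0.01 for all genes), and 4 higher and 5 lower in Py8119 tumours (median -0.18, against 0.01). Rhbdf2, which brings the sheddase ADAM17 to the surface, was lower in Py8119 cultures (-1.75 ± 0.10) and tumours (-1.36 ± 0.13). The metalloprotease gene Adam12 was lower as well (-2.76 ± 0.24 and -1.03 ± 0.21), whereas Adam8 was higher (0.82 ± 0.17 and 1.06 ± 0.19).

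Of 29 adaptor and transducer genes, 5 were higher and 10 lower in Py8119 cultures, and 8 higher and 12 lower in Py8119 tumours (medians -0.17 and -0.31, against -0.01 and 0.01 for all genes). Of all genes, 26.8% were called between the cultures and 37.4% between the parental tumours. Grb7, an adaptor that binds ErbB receptors and lies beside Erbb2 on the chromosome, was lower in Py8119 cultures (-2.46 ± 0.17) and tumours (-1.31 ± 0.10), with means of 5.48 near background. Of the 7 genes around Erbb2, 3 were lower in culture and 3 in tumours and none was higher, and the tumour count was near the 37.4% of all genes. The others in culture, Stard3 (-0.41 ± 0.10) and Pgap3 (-0.32 ± 0.10), differed less. The phosphoinositide 3-kinase subunit genes Pik3r1 (-1.43 ± 0.13 in culture, -1.48 ± 0.11 in tumours) and Pik3r3 (-2.66 ± 0.19 in tumours) were lower in Py8119. Other subunit genes had higher means in Py8119 than in Py117 tumours. They were Pik3r2 (8.617 against 7.691), Pik3cb (8.815 against 8.316) and Pik3ca (9.144 against 8.891).

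Of 21 genes that restrain the receptors, 5 were higher and 8 lower in Py8119 cultures, and 2 higher and 7 lower in Py8119 tumours (medians -0.12 and -0.003, against -0.01 and 0.01 for all genes), so the tumour count, 9 of 21, was near the 37.4% of all genes. Lrig1, which promotes the degradation of ErbB receptors, was higher in Py8119 tumours (1.37 ± 0.11), and its relative Lrig3 was higher in Py8119 cultures (1.20 ± 0.13). In tumours the Lrig3 means were close, 6.89 for Py117 and 6.93 for Py8119. The ubiquitin ligase gene Cblc (-1.51 ± 0.14 in culture, -0.55 ± 0.11 in tumours) and the phosphatase gene Ptprj (-1.12 ± 0.10 and -1.82 ± 0.12) were lower.

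Genes induced by or feeding back on ERK signalling, which lies downstream of ErbB and of other receptors, were also followed. Of 22, 5 were higher and 11 lower in Py8119 cultures (median -0.30), where 14.5% of all genes were higher and 12.3% lower. The ERK phosphatase gene Dusp6 differed by -1.99 ± 0.11, the feedback inhibitor gene Spry1 by -2.27 ± 0.14 and the immediate early gene Fos by -2.59 ± 0.31. In tumours 9 were higher and 9 lower (median 0.08), where 37.4% of all genes were called. Phlda1 (-2.16 ± 0.18) and the transcription factor gene Etv5 (-2.07 ± 0.15) were lower in Py8119 tumours, and the feedback inhibitor gene Spred3 was higher (1.21 ± 0.12).

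From culture to tumour, 15 of these 22 genes were lower and 4 higher in Py117, and 10 were lower and 5 higher in Py8119 (medians -0.80 and -0.37, against -0.09 and -0.05 for all genes). Of all genes, 18.3% were lower and 12.4% higher in Py117 tumours, and 20.9% lower and 16.3% higher in Py8119 tumours. Ier3, an early response gene, was lower in both (-2.10 ± 0.14 and -2.0 ± 0.23). Spry1 was higher in Py8119 tumours than in culture by 2.39 ± 0.13 (adjusted p = 7.17e-07), and the lines differed in its change by 2.96 ± 0.25 (adjusted p = 5.75e-07).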

How the data were processed

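Total RNA of 21 samples was labelled with the Affymetrix WT PLUS assay, per the labels' protocols. The authors deposited log2 signal per probe set, computed by RMA (the submitters' processing notes name RMA and limma without versions). Background correction and normalization beyond that name, and any batch, are not given in the sources used here, and the number of arrays limits the precision.

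Of 41345 probe sets, 23521 carry a single gene symbol in the platform annotation, 1814 several and 16010 none. Single-symbol probe sets were used, the one with the highest mean over all arrays for each gene. Linear models for each gene (lmFit and eBayes of limma 3.58.1, R 4.3.3) held 6 arrays for the cultures, 15 for the tumours, 8 for each tumour against its culture and 16 for the interaction. The procedure was tested on simulated data. Figures used matplotlib 3.10.9. The members, gene lists, tests and background mark were chosen with earlier results of these data known, and lists are described by counts and medians only. Named genes were all members, up to 4 called genes of a list with the largest differences in a comparison, and the 3 genes with the smallest root-mean-square distance from a member. Alternatives were other scalings, a signal filter, all probe sets of a gene, other priors and weights, a fit of all arrays, a replicate block, an adipocyte covariate, a threshold of 0.01 and leaving out each array.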

Additional observations from a re-analysis of the deposited data

Results flagged for a closer look

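The change from culture to tumour differed between the lines for 4 genes in the interaction test. The log2 difference was 2.05 for Hbegf, 1.87 for Nrg1, 0.89 for Btc and -1.87 for Erbb4.

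In 27 groups of 5 tumours, 3 held an array apart from the rest by Dixon's criterion, where chance gives about 1 in 20. They were mixed tumour 2 for Erbb4 (log2 signal 5.27) and for Ereg (6.00), and Py8119 tumour 1 for Nrg1 (9.92).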

How the results depend on the processing

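Leaving aside single arrays and the stricter threshold, 3 settings moved a count of called members or of all genes by over 1.5 times or the median position by more than its spread. With array weights 2 members were called for mixed against Py8119 tumours in place of 1 (907 of all genes in place of 394). For the interaction 2 were called in place of 4 when the lower part of the signal range was left out, which removes Erbb4, Btc and Ereg from the test. The median position of members in mixed tumours was 81.6% on the log2 scale in place of 89.6%. Same-numbered arrays deviated from their group means with r from -0.234 to 0.257, and in none of the 6 pairs of groups did every number exceed 0.1, so the numbers were not taken as pairs. With the replicate block the counts of members called were 5, 7, 7, 1 and 7 as without it, 4 in place of 5 for Py8119 tumours against culture, and 4 as without it in the interaction, so the block ended only the call of Erbb2 for Py8119 tumours against culture (adjusted p = 0.130). At a threshold of 0.01, all genes called were 3653 in place of 5942 for the cultures, 4495 in place of 6811 for Py117 tumours against culture, 224 for mixed against Py8119 tumours and 1674 in place of 2992 for the interaction. Without single arrays the member counts ran from 4 to 5 for the cultures, 6 to 7 for either tumour group against Py117 tumours, 7 to 8 and 4 to 5 for Py117 and Py8119 tumours against culture, and 3 to 4 for the interaction. Centring on medians shifts the comparisons by the difference of array medians (-0.15 for the cultures, -0.10 for the parental tumours, 0.16 and 0.21 for tumours against culture).

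The single-gene values that changed sign were called neither in the main analysis nor under that setting (adjusted p of at least 0.187), and the cause was not tested. For the cultures these were Ereg (0.0303 after quantile normalization, 0.0374 after centring, -0.223 to 0.0421 without single arrays) and Erbb4 (0.0676 after centring, -0.224 to 0.0958 without single arrays). For Py8119 against Py117 tumours they were Egfr (0.0126 after centring) and Ereg (-0.0326 to 0.0784 without single arrays). For mixed against Py117 tumours they were Egfr (0.0618 after centring, 0.0675 with the adipocyte covariate, -0.0491 to 0.0714 without single arrays) and Ereg (0.0725 after quantile normalization, 0.0422 after centring, 0.0251 with weights, -0.101 to 0.0146 without single arrays). For mixed against Py8119 tumours they were Btc (-0.0222 with weights, -0.0695 to 0.125 without single arrays) and Ereg (-0.134 to 0.0101). For Py117 tumours against culture it was Ereg (-0.18 to 0.0856). For Py8119 tumours against culture they were Erbb3 (-0.128 after quantile normalization, -0.202 after centring, -0.0085 with the block, -0.0578 to 0.0388 without single arrays), Ereg (-0.104 and -0.128 after the same scalings, -0.0307 to 0.147) and Erbb4 (-0.133 to 0.0375). For the interaction it was Ereg (-0.0085 to 0.257).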
